A study of Mus musculus with 14 samples.

Results

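The genes examined are 41 genes of DNA replication and mitosis, out of 21427 protein-coding genes whose start could be placed. They were taken as a list of gene names and not by a cut on measured values, but the list was set with earlier results of these data known. Of the 41 genes, 26 act in DNA replication, 12 act in mitosis, and 3 (Ccne1, Ccne2, and Cdk2) drive the step from G1 into S phase and are counted apart. A gene was counted as called in a list when an H3K4me3 peak of that list came within 1 kb of the gene start, upstream or downstream. H3K4me3 CUT&Tag libraries were made from LSK cells (Lin−Sca1+cKit+ stem and progenitor cells) that were sorted from the bone marrow of male C57BL/6J mice fed either a high-fat diet (HFD) or a low-fat control diet (LFD) for several months from about weaning. The labels name the assay CUT&RUN in the titles and CUT&Tag in the protocol. There were 3 HFD-LSK lists and 4 LFD-LSK lists, 1 list per library, and nothing in the labels says how many mice gave each library, so the spread between libraries may be partly technical.

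H3K4me3 is a histone mark found at the starts of active and poised genes. Before a cell divides, origin recognition proteins, Cdc6, and Cdt1 load the MCM2-7 helicase onto DNA. Cdc45 and the GINS complex then turn it into the active helicase, and the sliding clamp Pcna, loaded by the Rfc proteins, holds the polymerases on the template. Genes of this set are classic targets of E2F transcription factors, which the retinoblastoma protein restrains, while genes of mitosis such as cyclin B, Cdk1, and Plk1 peak later in the cycle and carry CHR and CCAAT elements in their promoters. The study asked whether a high-fat diet changes H3K4me3 in LSK cells and drew attention to targets of E2F, the retinoblastoma protein, and the H3K4 demethylase KDM5A.

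The promoters of the 2 groups differ in these letters, and some are shown here for that reason. Each run is the 150 bases that end just before the gene start, 5′ to 3′ on the gene's strand, from the RefSeq promoter table of GRCm38.p6. Capitals mark an E2F motif (TTTCCCGC or TTTGGCGC), a CHR element (TTTGAA or TTCGAA), or a CCAAT box (CCAAT), each on either strand. The first set holds replication genes with an E2F motif in this stretch.
Mcm5: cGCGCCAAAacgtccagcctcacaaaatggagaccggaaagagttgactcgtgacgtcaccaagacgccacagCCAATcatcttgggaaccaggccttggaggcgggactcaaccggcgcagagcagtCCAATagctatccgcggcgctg
Mcm6: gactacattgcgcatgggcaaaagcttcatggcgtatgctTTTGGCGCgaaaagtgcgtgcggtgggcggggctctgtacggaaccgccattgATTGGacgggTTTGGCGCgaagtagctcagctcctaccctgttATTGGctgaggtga
Cdc6: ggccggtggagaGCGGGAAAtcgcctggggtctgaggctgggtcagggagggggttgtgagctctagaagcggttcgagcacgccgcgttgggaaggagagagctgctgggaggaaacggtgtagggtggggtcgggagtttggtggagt
Gins3: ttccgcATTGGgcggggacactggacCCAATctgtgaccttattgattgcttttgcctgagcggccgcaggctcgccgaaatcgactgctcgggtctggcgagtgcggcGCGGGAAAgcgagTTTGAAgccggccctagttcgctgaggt
These lie at chr8:75109359-75109508 (plus strand), chr1:128359706-128359855 (minus strand), chr11:98908001-98908150 (plus strand), and chr8:95633409-95633558 (plus strand). The second set holds mitosis genes with a CHR element in this stretch, and with CCAAT boxes nearby.
Cdk1: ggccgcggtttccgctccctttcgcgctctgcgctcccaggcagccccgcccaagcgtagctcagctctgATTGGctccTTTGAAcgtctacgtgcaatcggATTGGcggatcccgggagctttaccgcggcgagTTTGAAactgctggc
Mki67: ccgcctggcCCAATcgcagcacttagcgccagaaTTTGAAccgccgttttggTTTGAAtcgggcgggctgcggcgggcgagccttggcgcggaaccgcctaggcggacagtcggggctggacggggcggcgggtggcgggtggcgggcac
Top2a: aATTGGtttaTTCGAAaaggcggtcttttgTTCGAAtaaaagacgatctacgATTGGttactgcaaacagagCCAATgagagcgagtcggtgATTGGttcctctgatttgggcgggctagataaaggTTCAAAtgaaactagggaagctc
Cdc20: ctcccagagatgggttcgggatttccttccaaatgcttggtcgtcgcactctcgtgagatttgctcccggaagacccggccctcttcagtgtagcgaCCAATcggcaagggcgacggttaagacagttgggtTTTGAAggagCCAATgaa
These lie at chr10:69352913-69353062, chr7:135716380-135716529, chr11:99024190-99024339, and chr4:118437344-118437493, all on the minus strand. The last is Rrm2, at chr12:24708104-24708253 on the plus strand, shown because it was the gene without a peak in any list.
Rrm2: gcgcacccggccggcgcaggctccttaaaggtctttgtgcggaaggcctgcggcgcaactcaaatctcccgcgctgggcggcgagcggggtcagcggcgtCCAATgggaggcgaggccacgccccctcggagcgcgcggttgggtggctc
Promoter windows from 250 bases before to 50 after the start were given for 32 of the 41 genes. Within them an E2F motif was found for 8 of 20 replication genes (40%) and 0 of 10 mitosis genes, compared with 2.09% of all 17492 coding promoters in the table. A CHR element was found for 5 of 20 replication genes (25%) and 8 of 10 mitosis genes (80%), compared with 18.2% of all. A CCAAT box was found for 14 of 20 (70.0%) and 9 of 10 (90.0%), compared with 39%, and the Sp1 box GGGCGG for 15 of 20 (75%) and 9 of 10 (90.0%), compared with 46.3%. Of the coding promoters called in all 7 lists, 3915 were in the table. Their shares were 3.55% for the E2F motif, 12.1% for the CHR element, 37.8% for the CCAAT box, and 73.1% for the Sp1 box. The Sp1 share of the replication genes was thus near that of regularly called promoters. None of the 11 E2F motif sites of the members overlapped an Sp1 box. Of the 9 members with an E2F motif, 3 were called in all 7 lists, and of the 13 with a CHR element, 4 were. The share was 31.7% over all 41 members, so neither motif set these members apart. It was 21.8% over all coding genes with a start and 40.4% over those called in at least 1 list. The members' windows held a median of 24 CpG dinucleotides, compared with 13 over all coding promoters and 25 over the coding promoters called in all 7 lists.

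Most of the 41 genes carried H3K4me3 in LSK cells, and the number called followed the length of the list. In HFD-LSK replicates 1, 2, and 3, a peak was called at 17, 25, and 24 of the 26 replication genes (65.4%, 96.2%, and 92.3%). In LFD-LSK replicates 1, 2, 3, and 4, it was called at 18, 22, 19, and 11 (69.2%, 84.6%, 73.1%, and 42.3%). The diets overlapped, because HFD-LSK replicate 1 had fewer called replication genes than 3 of the 4 LFD-LSK lists. Of the 12 mitosis genes, 10, 12, and 10 were called in HFD-LSK (83.3%, 100%, and 83.3%) and 7, 12, 9, and 5 in LFD-LSK (58.3%, 100%, 75%, and 41.7%). Here too the ranges overlapped, and LFD-LSK replicate 2 had all 12.
For replication the mean share was 84.6% ± 16.8 (SD, n = 3) with HFD, compared with 67.3% ± 17.9 (SD, n = 4) with LFD. For mitosis it was 88.9% ± 9.62 compared with 68.8% ± 24.9. Over all coding promoters it was 46.3% ± 5.27 and 38.5% ± 6.89, and over the 11561 coding promoters called in at least 1 list it was 85.7% ± 9.76 and 71.3% ± 12.8. The differences of 17.3 points for replication and 20.1 points for mitosis lay within or near the spread between the libraries of a diet, and the promoters called in at least 1 list differed by 14.4 points in the same direction.
The lists held 9186, 13094, and 11977 peaks in HFD-LSK and 7447, 10572, 10352, and 6921 in LFD-LSK. Ordered from the shortest list to the longest, the number of the 41 genes called was 18, 28, 30, 31, 37, 37, and 40, so it never fell as the list grew. When each list was cut to its 6921 strongest peaks by fold enrichment, 12, 15, and 15 replication genes were called in HFD-LSK and 15, 14, 11, and 11 in LFD-LSK. For mitosis the counts were then 9, 7, and 6 in HFD-LSK and 7, 10, 8, and 5 in LFD-LSK. Over all coding promoters the shares in the cut lists were 33.4%, 33.5%, and 29.7% in HFD-LSK. They were 33.0%, 33.0%, 32.6%, and 30.6% in LFD-LSK. The differences in mean share became 4.81 points for replication and −1.39 points for mitosis, and the part of list length or depth in the uncut difference was not tested further.

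**Figure D1:**
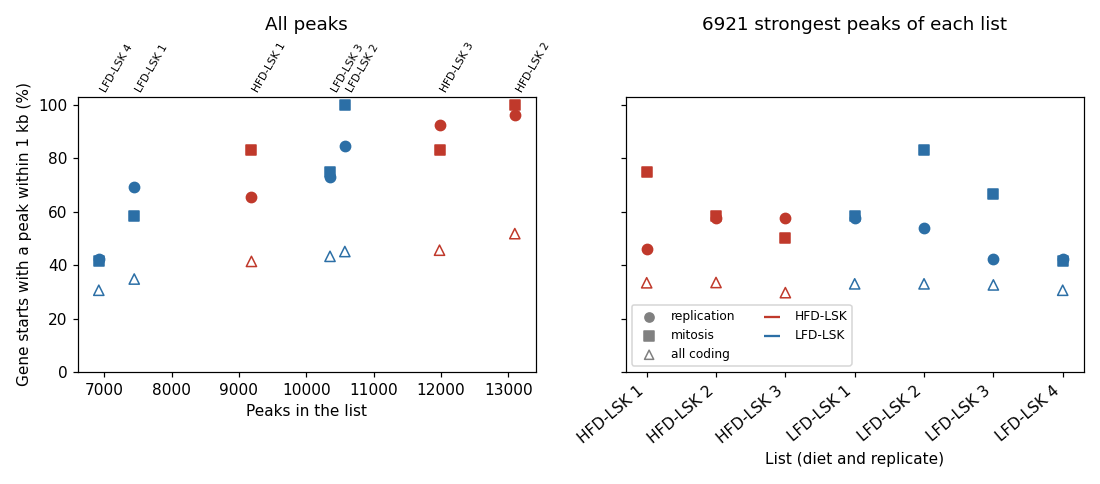
Share of gene starts with a peak within 1 kb in percent (y axis) for replication genes (circles), mitosis genes (squares), and all coding genes (open triangles), red for HFD-LSK and blue for LFD-LSK, plotted against the number of peaks in the list (left) and by list with the 6921 strongest peaks of each (right). On the left all 3 series are lowest in the shortest list (6921 peaks) and highest in the longest (13094 peaks), and on the right the diets overlap, with 46.2% to 57.7% of replication genes in HFD-LSK and 42.3% to 57.7% in LFD-LSK.

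Of the 40 members called in at least 1 list, 24 (60%) were called in a larger share of the HFD-LSK lists, 3 (7.50%) in a smaller share, and 13 in all 7 lists. Over all coding promoters called in at least 1 list, the shares were 49.5% and 10%, and 40.4% were called in all 7 lists. The 3 with a smaller share in HFD-LSK were Tyms, Rfc2, and Rfc4, each with a peak in 2 HFD-LSK lists and 3 LFD-LSK lists. No member was called in the 3 HFD-LSK lists and in none of the LFD-LSK lists, where the background was 0.285% of coding promoters (33 of 11561). None was called in the 4 LFD-LSK lists alone either, where the background was 0%. Those are the only patterns that can pass 0.05 in Fisher's exact test with 3 and 4 libraries, and the lowest p among the members was 0.429 (Fisher's exact test, two-sided). After Benjamini-Hochberg adjustment over the 11561 promoters, no promoter passed 0.05.

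The MCM2-7 helicase subunits were the most regularly marked group of the replication machinery with more than 1 gene. They had a peak in 18 of 18 gene and list pairs of HFD-LSK (100%) and in 19 of 24 of LFD-LSK (79.2%). Over all coding promoters called in at least 1 list, the shares were 85.7% and 71.3%. Mcm4 and Mcm7 were called in all 7 lists. Mcm2, Mcm5, and Mcm6 had a peak in each HFD-LSK list and in 3 LFD-LSK lists, and Mcm3 in each HFD-LSK list and in 2 LFD-LSK lists. Mcm2 and Mcm5 lacked a peak in LFD-LSK replicate 3, Mcm6 in LFD-LSK replicate 4, and Mcm3 in LFD-LSK replicates 2 and 4.
The same subunit could stand near the top of one list and near the end of another. Ranks are given by fold enrichment as a percent of the list, so that 0 is the strongest peak. Mcm4 stood at 12.7%, 4.11%, and 0.113% in HFD-LSK replicates 1, 2, and 3 and at 3.30%, 34.0%, 69.9%, and 39.7% in LFD-LSK replicates 1, 2, 3, and 4. The HFD-LSK values were low, but LFD-LSK replicate 1 lay among them. Mcm2 stood at 63.5%, 46.8%, and 87.9% in HFD-LSK and at 99.7%, 20.1%, and 40.5% in LFD-LSK replicates 1, 2, and 4, so its strongest position was in LFD-LSK. Mcm7 stood at 34.7%, 60.8%, and 12.6% in HFD-LSK and at 13.5%, 79.7%, 4.29%, and 73.1% in LFD-LSK, with the 2 diets fully mixed.
Mcm6 showed how much the width can vary at a single start. Its peak was 472, 2700, and 1303 bp wide in HFD-LSK replicates 1, 2, and 3 and 297, 2531, and 1016 bp in LFD-LSK replicates 1, 2, and 3. The 2 broad peaks, in HFD-LSK replicate 2 and LFD-LSK replicate 2, reached 2146 and 2349 bp into the gene, while the narrow ones ended within 653 bp of the start. Mcm3 peaks were 383, 912, and 536 bp wide in HFD-LSK and 278 and 316 bp in LFD-LSK replicates 1 and 3, and Mcm5 peaks ranged from 493 to 1949 bp.

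Of the genes that load and fire the helicase, Cdt1 (the loading partner of Cdc6) and Cdc45 (part of the active helicase) were called in all 7 lists. Orc1, the largest origin recognition subunit, was called in 6, without LFD-LSK replicate 4. Cdc6 had a peak in replicates 2 and 3 of either diet. Mcm10, which helps to start the fork, had a peak in 3 lists, HFD-LSK replicates 2 and 3 plus LFD-LSK replicate 2. Cdt1 stood at 17.1%, 15.1%, and 16.2% of the HFD-LSK lists and at 78.1%, 20.1%, 7.63%, and 48.8% of the LFD-LSK lists, which is a narrow range in HFD-LSK inside a broad one in LFD-LSK. The 4 GINS genes were called in 11 of 12 pairs in HFD-LSK (91.7%) and in 9 of 16 in LFD-LSK (56.2%), beside 85.7% and 71.3% over all coding promoters called in at least 1 list. Gins2 was called in all 7 lists, Gins3 and Gins4 in 3 HFD-LSK and 2 LFD-LSK lists, and Gins1 in 2 and 1.
The sliding clamp gene Pcna was called in all 7 lists. It stood at 9.34%, 45%, and 76.3% in HFD-LSK and at 10.6%, 36.5%, 10.9%, and 18.9% in LFD-LSK, with both the first and the last place in HFD-LSK. The clamp loader genes were less regular. Rfc1 and Rfc5 were called in 6 lists, Rfc2 and Rfc4 in 5, and Rfc3 in 3. Pole, the catalytic subunit of the leading-strand polymerase, was called in all 7.
Genes for the supply of nucleotides had the lowest share of called pairs of the role groups, with 13 of 28 (46.4%). These were 6 of 12 pairs in HFD-LSK and 7 of 16 in LFD-LSK. Over all coding promoters the shares were 46.3% and 38.5%, and over those called in at least 1 list they were 85.7% and 71.3%. Rrm1, the large subunit of ribonucleotide reductase, was called in all 7 lists, and Rrm2, its small subunit, in none. The nearest peak to the Rrm2 start lay 54096 to 56700 bp away in the 7 lists, although its window holds 40 CpG dinucleotides, more than all other members' windows but that of Ccne1 with 41. Tyms, which makes thymidylate, was called in 5 lists. Tk1, thymidine kinase, was called in HFD-LSK replicate 2 alone, by a peak of 432 bp with 15 fragments at its summit. That summit lay 1142 bp into the gene, and the peak overlapped the counted window only by its edge, from 925 bp. In the other 6 lists the nearest peak to the Tk1 start was 14966 bp away or more.

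**Figure D2:**
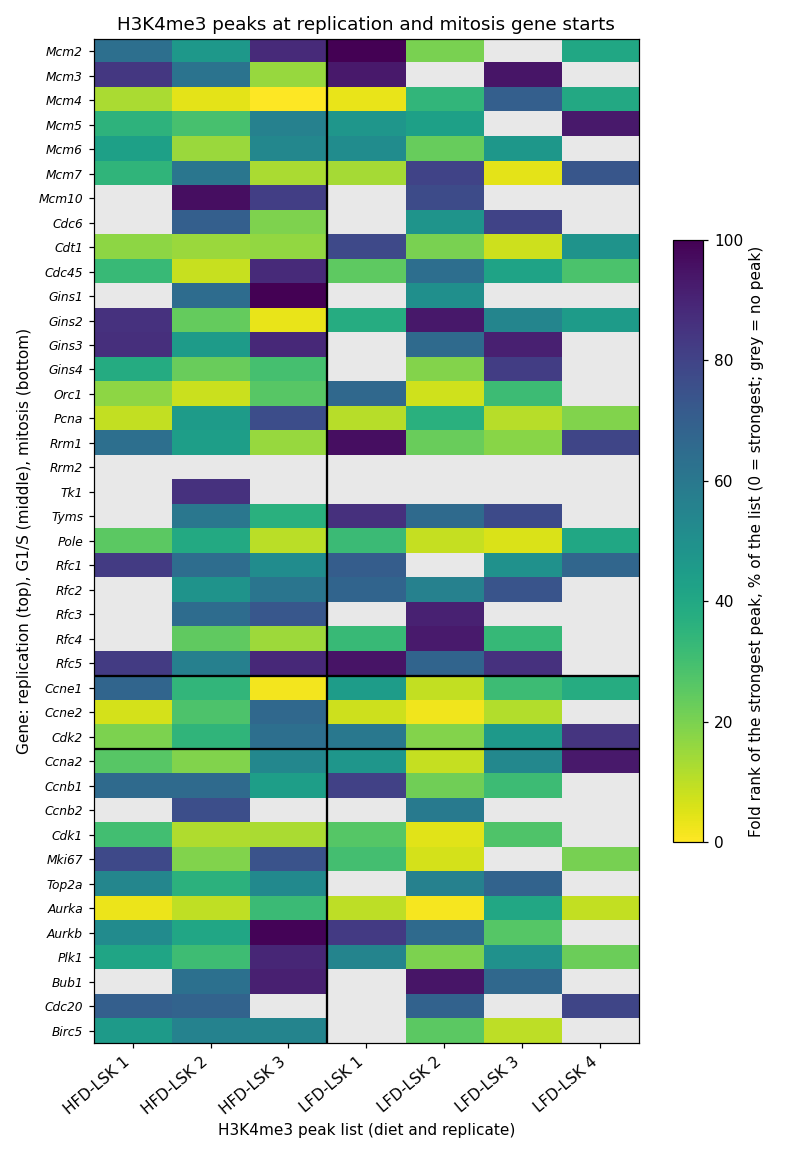
Fold rank of the strongest peak at each of the 41 gene starts (rows) in each of the 7 lists (columns), as a percent of the list from 0 (strongest, yellow) to 100 (weakest, dark), with grey for no peak. Grey cells gather in LFD-LSK replicates 1 and 4, the 2 shortest lists, and in HFD-LSK replicate 1, while the Rrm2 row is grey throughout and the Aurka row stays at or below 40.2% in each list.

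Of the G1/S genes, Ccne1 (cyclin E1) and its kinase Cdk2 were called in all 7 lists and Ccne2 (cyclin E2) in all but LFD-LSK replicate 4. Ccne2 stood at 6.43%, 28.0%, and 66.3% in HFD-LSK and at 7.46%, 2.31%, and 11.6% in LFD-LSK replicates 1, 2, and 3. The peaks were 1432 to 2259 bp wide, and their summits lay 707 to 1136 bp into the gene, counted from the outer end of the RefSeq gene.
Among the mitotic cyclins and their kinase, Ccna2 (cyclin A2) was called in all 7 lists. Its peaks began 544 to 870 bp inside the gene, counted from the outer end of the gene, so they reached the counted window only by their upstream part. Ccnb1 (cyclin B1) and Cdk1 were called in all lists but LFD-LSK replicate 4. Cdk1 stood high in each list that called it, at 30.3%, 11.9%, and 12.8% in HFD-LSK and at 26.3%, 4.32%, and 27.5% in LFD-LSK replicates 1, 2, and 3. Ccnb2 (cyclin B2) had a peak in replicate 2 of either diet and in no other list, at 76.1% and 59.1%, with 19 and 24 fragments at the summit.
Of the mitotic kinases, Aurka and Plk1 were called in all 7 lists. Aurkb, the kinase of the chromosomal passenger complex, was called in 6, and Bub1 of the spindle checkpoint in 4. Aurka stood at 2.94%, 9.69%, and 31.7% in HFD-LSK and at 9.87%, 1.20%, 40.2%, and 9.07% in LFD-LSK. It was the member nearest the top by mean rank over the 7 lists. Mki67, the proliferation marker Ki-67, was called in 6 lists, Top2a, the DNA topoisomerase of dividing cells, in 5, Birc5 (survivin) in 5, and Cdc20, an activator of the anaphase-promoting complex, in 4. Birc5 was missing from LFD-LSK replicates 1 and 4. Cdc20 was missing from HFD-LSK replicate 3 and LFD-LSK replicates 1 and 3.
Of the 66 gene and list pairs without a call, 58 had no peak within 10000 bp of the start and 1 had a peak within 3000 bp. The missing calls were therefore mostly starts without a peak nearby and not peaks just outside the window. A start without a call may still carry the mark, since the weakest called summits held between 4 and 21 fragments, depending on the list.

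The ranks of the members called in all 7 lists did not separate the diets. For all members called in a list, the median rank was also taken as a percent of the list. Its mean over the lists differed, HFD minus LFD, by −8.10 points for replication and by 13.8 points for mitosis. These differences went in opposite directions, beside −0.908 points for all called coding promoters. The libraries of the diets overlapped in both groups, the lists call different members, and the differences were not tested. Of the 41 genes, 13 (31.7%) were called in all 7 lists, beside 21.8% of all coding genes with a start. Among those called in at least 1 list the share was 32.5% of the members, below the 40.4% of coding promoters. The 13 could be compared gene by gene: Mcm4, Mcm7, Cdt1, Cdc45, Gins2, Pcna, Rrm1, and Pole for replication, Ccne1 and Cdk2 for G1/S, and Ccna2, Aurka, and Plk1 for mitosis. These had to pass in the shortest list, so they are the more strongly marked members and do not stand for the others. None had fold ranks nearer the top in each HFD-LSK list than in each LFD-LSK list, where the background was 1.39% of the 4675 coding promoters called in all 7 lists. None ranked farther from the top in each HFD-LSK list, where the background was 4.32%. The lowest p among the 13 was 0.143, for Mcm4 (exact permutation test over the 35 arrangements of the libraries, two-sided), and its adjusted p over the 4675 promoters was 0.818. The smallest p this design can give is 0.0286, which 179 of the 4675 promoters reached, none of them a member, and none of the 4675 passed 0.05 after adjustment.
The 3 members nearest the top by mean rank over the 7 lists were Aurka, Pole, and Mcm4, at 1570, 2197, and 2221. The 3 farthest from it were Gins2 at 4692, Plk1 at 4470, and Cdk2 at 4438. Plk1 ranked 3772, 4050, and 10676 in HFD-LSK and 4076, 2071, 5099, and 1547 in LFD-LSK. Its mean lay farther from the top in HFD-LSK (6166 compared with 3198), mostly through a single list, replicate 3. Gins2 ranked 7886, 3076, and 416 in HFD-LSK and 2822, 9900, 5630, and 3116 in LFD-LSK, with the highest and the lowest place far apart in either diet.
Among the 4675 coding promoters, the median place of the 8 replication members by mean rank was at the 55.8th percentile and that of the 3 mitosis members at the 64.2nd, where a higher percentile is a weaker peak. The median change in rank was 374 places away from the top in HFD-LSK for replication and 369 for mitosis, compared with 678 for all 4675. Of the members, 3 of 8 and 1 of 3 moved nearer the top, beside 35.3% of the 4675. The HFD-LSK lists are longer on average, and ranks counted as a percent of the list gave a median difference of −9.78 points for replication and −0.280 for mitosis.

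Among the members, peaks at replication genes had a smaller median width than those at mitosis genes in each list. The median width of the called replication genes was 623, 1157, and 688 bp in HFD-LSK and 522, 970, 855, and 558 bp in LFD-LSK. For the called mitosis genes it was 884, 1443, and 1042 bp in HFD-LSK and 910, 1108, 1039, and 743 bp in LFD-LSK. The replication median was the smaller in 7 of 7 lists, although these are the same genes each time and not independent observations. All coding promoters called in a list had median widths of 924, 1342, and 872 bp in HFD-LSK and 782, 1044, 894, and 561 bp in LFD-LSK. The replication median lay at the 22.4th to the 49.5th percentile of the called coding promoters of a list, and the mitosis median at the 46.3rd to the 69.0th. Among the 42 further replication and 51 further mitosis genes, the replication median was the smaller in 6 of 7 lists, and among those called in all 7 lists it was the larger, with medians of the mean width of 1027 bp for replication and 986 bp for mitosis. Within a list the members spread over nearly the whole range, for example from 222 to 1310 bp in LFD-LSK replicate 4.

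**Figure D3:**
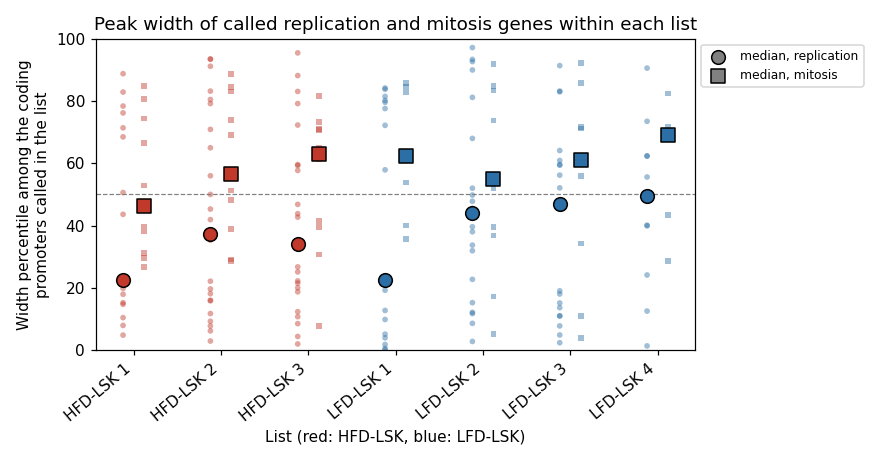
Percentile of the peak width among the coding promoters called in the same list (y axis) for each called replication gene (small circles) and mitosis gene (small squares), by list, with the median of each group as a large symbol. The replication medians lie at 22.4 to 49.5 and below the mitosis medians, which lie at 46.3 to 69.0, in each list of both diets.

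By rank the order of the groups was not the same in each list. Among the coding promoters called in a list, the replication median lay on the weaker side of the middle in 6 of 7 lists and the mitosis median in 3 of 7. In HFD-LSK the replication median lay at percentiles 44.4, 56.2, and 51.1, and the mitosis median at 55.1, 48.5, and 61.5. In LFD-LSK they lay at 64.2, 57.3, 57.8, and 51.6 and at 52.7, 29.0, 48.1, and 27.0. The replication median was thus the weaker in each LFD-LSK list and in HFD-LSK replicate 2, which was not tested.

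Among the 13 members called in all 7 lists, 2 were wider in each HFD-LSK list than in each LFD-LSK list, Mcm4 and Pole, where the background was 6.78% of the 4675 coding promoters (317). None was narrower in each HFD-LSK list, where the background was 0%. The Mcm4 peak was 1344, 1603, and 1965 bp wide in HFD-LSK replicates 1, 2, and 3 and 1163, 1314, 397, and 558 bp wide in LFD-LSK replicates 1, 2, 3, and 4. The gap between the diets was small, from 1314 to 1344 bp, and the LFD-LSK values fell into a wide and a narrow pair. The means were 1637 ± 312 bp (SD, n = 3) and 858 ± 449 bp (SD, n = 4). The exact permutation test gave p = 0.0571 (two-sided) and a Benjamini-Hochberg adjusted p of 0.720 over the 4675 promoters.
The Pole peak was 1443, 1987, and 1396 bp wide in HFD-LSK and 1264, 987, 1078, and 669 bp wide in LFD-LSK, which is 1609 ± 328 bp (SD, n = 3) and 1000 ± 249 bp (SD, n = 4), with the same p of 0.0571 and adjusted p of 0.720 in the exact permutation test. Neither gene passed the threshold. By rank Mcm4 had the lower mean in HFD-LSK (572 compared with 3457) with overlapping values, and Pole stood at 25.3%, 39.1%, and 10.3% in HFD-LSK and at 31.7%, 8.87%, 5.77%, and 40.5% in LFD-LSK. Both starts have the start of a second coding gene on the other strand within 1 kb, Prkdc at Mcm4 and Pxmp2 at Pole, so the width cannot be assigned to either gene of the pair. The Mcm4 start lies at 15637400 on chromosome 16 (gene from 15623897 to 15637400, minus strand), and its peak began at −843, −833, and −1089 bp from it in HFD-LSK and at −738, −571, −20, and −213 bp in LFD-LSK, where negative values lie upstream. The Pole start lies at 110286319 on chromosome 5 (gene from 110286319 to 110337468, plus strand).
Of the 13 members, 11 had a larger mean width in HFD-LSK and 2, Cdc45 and Plk1, a smaller one. Over the 4675 promoters 7.42% had a smaller mean width in HFD-LSK. The median difference was 418 bp for replication and 123 bp for mitosis, beside 278 bp for all 4675. The median width of those 4675 promoters was 1093, 1665, and 1060 bp in the HFD-LSK lists and 881, 1275, 1075, and 636 bp in the LFD-LSK lists, so width moved with the list over the whole genome. As a percentile within its own list, the Mcm4 width differed by 28.4 points (exact permutation test, two-sided, p = 0.286) and the Pole width by 18.1 points (exact permutation test, two-sided, p = 0.143), and neither kept the diets apart.

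**Figure D4:**
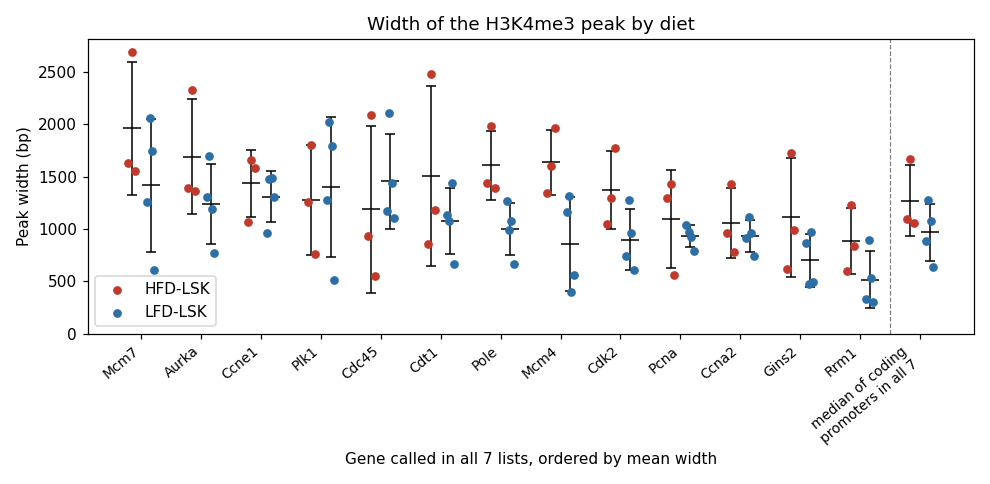
Width in bp of the strongest peak (y axis, from 0) for the 13 members called in all 7 lists, ordered by mean width, with each library as a point, the mean as a bar, and the SD as an error bar (3 HFD-LSK libraries in red, 4 LFD-LSK libraries in blue), and at the right the median of the 4675 coding promoters called in all 7 lists. The diets do not overlap at Mcm4 and Pole and overlap at the other 11 members.

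The widest members by mean were Mcm7 at 1651 bp, Aurka at 1435 bp, and Ccne1 at 1364 bp, and the narrowest were Rrm1 at 673 bp, Gins2 at 876 bp, and Ccna2 at 986 bp. Mcm7 and Aurka also have such a neighbor, Ap4m1 and Cstf1. Rrm1 was narrow in both diets, with 594, 1226, and 836 bp in HFD-LSK and 329, 891, 531, and 301 bp in LFD-LSK, and lay at the 6.42nd percentile of the 4675 promoters.

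A shared start went with regular calls. Of the 41 members, 7 have a coding gene start on the other strand within 1 kb (Mcm4, Mcm7, Cdc45, Orc1, Tk1, and Pole for replication and Aurka for mitosis), and 5 of these were called in all 7 lists. Of the other 34 members, 8 were (23.5%). Over all coding genes with a start, 56.7% of the 2147 with such a neighbor were called in all 7 lists and 17.9% of the 19280 without one. Summits lay downstream of the start for 27 of the 40 called members (67.5%), by the median over the lists, compared with 63.4% of the 4675 promoters.

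**Figure D5:**
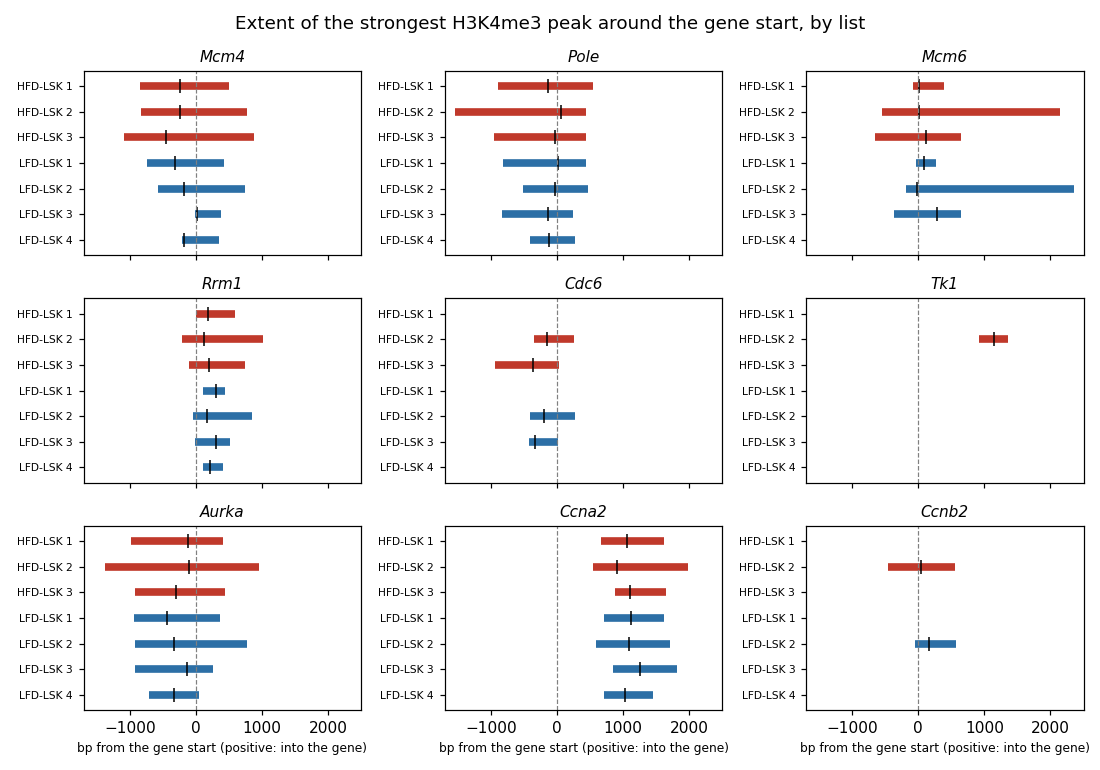
Extent of the strongest peak (bars) and its summit (tick) in bp from the gene start (x axis, positive into the gene) in each of the 7 lists for 9 members, red for HFD-LSK and blue for LFD-LSK, with no bar where no peak was called. Mcm4, Pole, and Aurka spread to both sides of the start, Rrm1 lies mostly downstream, Ccna2 begins 544 bp or more downstream, and Tk1, Cdc6, and Ccnb2 have bars in 1, 4, and 2 lists.

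Mcm2, Cdc6, Ccnb2, and Tk1 serve in the study as examples of E2F targets in the step from LSK cells to granulocyte-monocyte progenitors, which is not the comparison made here. Peaks lay at Mcm2 in 3 HFD-LSK and 3 LFD-LSK lists, at Cdc6 in 2 and 2, at Ccnb2 in 1 and 1, and at Tk1 in 1 and 0. By Fisher's exact test (two-sided) p was 1.00 for the first 3 and 0.429 for Tk1. Where Cdc6 was called, it stood at 69.8% and 19.5% in HFD-LSK replicates 2 and 3 and at 48.3% and 79.7% in LFD-LSK replicates 2 and 3. Its peak was 601 and 967 bp wide in HFD-LSK and 695 and 441 bp in LFD-LSK. Mcm2 had peaks of 529, 789, and 395 bp in HFD-LSK and 401, 817, and 222 bp in LFD-LSK replicates 1, 2, and 4, which lay between the 1.3rd and the 31.9th percentile of the coding promoters called in the same list. For these genes the lists hold no difference between the diets that exceeds the spread between libraries.

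Of 42 further replication genes (polymerases, origin recognition, replication protein A, and chromatin assembly among them), 37, 40, and 31 were called in HFD-LSK and 27, 35, 37, and 23 in LFD-LSK. The mean shares were 85.7% with HFD and 72.6% with LFD, beside 85.7% and 71.3% over the coding promoters called in at least 1 list. Timeless, of the fork protection complex, was called in none. The 16 called in all 7 lists had fold ranks that overlapped between the diets, and 1 of them, Cdc7, the kinase that fires origins, was wider in each HFD-LSK list (means 1269 and 797 bp, p = 0.0571 by exact permutation). The background for such widths was 6.78% of the 4675 coding promoters. By mean rank Orc3, Orc4, and Wdhd1 were nearest the top (1275, 1362, and 1770) and Pola2, Pold3, and Cdc7 farthest from it (5116, 5023, and 4408). Wdhd1, Orc4, and Orc6 were the widest (1480, 1419, and 1361 bp) and Pola2, Pold3, and Pole3 the narrowest (613, 735, and 750 bp).
Of 51 further mitosis genes (kinetochore, spindle, condensin, and DREAM complex genes among them), 41, 50, and 43 were called in HFD-LSK and 35, 45, 42, and 33 in LFD-LSK, and the kinesin gene Kif2c was called in none. The mean shares were 87.6% with HFD and 76.0% with LFD, beside the same 85.7% and 71.3%. Of the 24 called in all 7 lists, 2 ranked farther from the top in each HFD-LSK list, beside the 4.32% of all 4675 promoters. These were Kif23, a kinesin of cytokinesis, with mean ranks of 6877 in HFD-LSK and 2543 in LFD-LSK, and Fzr1, an activator of the anaphase-promoting complex, with 6476 and 2468 (each with p = 0.0286 by exact permutation). Cdca8 (borealin) was wider in each HFD-LSK list, with means of 1220 and 796 bp (p = 0.0286 by exact permutation), beside the 6.78% of all 4675 promoters. None of these passed after adjustment over the 4675 promoters, where the lowest adjusted p was 0.746 for ranks and 0.720 for widths. Wee1, Hmmr, and Cks1b were nearest the top (995, 1280, and 1532) and Ndc80, Mybl2, and Ect2 farthest from it (5827, 5118, and 5100). Wee1, Smc4, and Lin9 were the widest (2154, 1886, and 1358 bp) and Ndc80, Ncaph, and Pkmyt1 the narrowest (682, 726, and 748 bp).

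The lists carried the marks of the sorted population. Of 10 genes of LSK cells, 8, 9, and 8 were called in HFD-LSK and 5, 8, 7, and 5 in LFD-LSK, while Cd3e, Cd4, Cd8a, Cd5, Cd79a, Itgam, Ly6g, and Il7r, genes of mature lymphoid and myeloid cells and of lymphoid progenitors, were called in none of the 7 lists. Ly6a, which encodes Sca-1, was called in none. The share of LSK marker genes moved with the diet in the same way as the members' share, at 83.3% ± 5.77 with HFD (SD, n = 3) compared with 62.5% ± 15.0 with LFD (SD, n = 4). The lists give no read totals. The mean coverage recovered from the peak statistics was 0.116 to 0.268 fragments per position in HFD-LSK and 0.0891 to 0.214 in LFD-LSK, and that of the background was 0.0399 to 0.113 and 0.0201 to 0.0537. This background is the genome-wide value after MACS2 scales the deeper library, and it was below the mean coverage in each list. It can therefore follow sequencing depth and is not a measure of unspecific signal in the cells. It was higher on average in HFD-LSK, and its part in the results was not tested. The paper describes cohorts and batches, and its differential test takes batch and sample pairing into account. The labels assign no library to a cohort, batch, or pair, so batch cannot be told apart from diet here. Cell cycle stage was not measured, and a change in the share of dividing cells cannot be told apart from a change within cells.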

How the data were processed

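H3K4me3 CUT&Tag peak lists of 7 LSK libraries (3 HFD-LSK, 4 LFD-LSK) were analyzed, grouped by their labels. IgG libraries were not analyzed here. The submitters' processing notes name Trim Galore, Bowtie2, Picard, MACS2, BEDTools, HOMER, featureCounts, and GRCm38. The methods of the paper name GRCm39 and SEACR instead. The lists are MACS2 narrow peaks with 1 list per library, and the MACS2 version is not given in the sources used here. Every deposited peak has a fold enrichment (ratio of summit pileup over local background). The authors also deposited a −log10 p-value, a −log10 q-value, and a score that follows the −log10 p-value. The lowest −log10 p was 5.01. Fold depends on the depth and background of its library and was used only as a rank.

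Gene starts came from the RefSeq promoter table of GRCm38.p6 for 17492 of 21427 coding genes (32 of the 41 members). For the others the outer end of the RefSeq gene was used, with strand by symbol from GENCODE. With starts of GRCm39, 2 to 5 of the members were called per list, compared with 18 to 40 with GRCm38. The strongest peak by fold that overlapped 1 kb either side of a start gave the rank and the width. Differences in mean were tested by exact permutation over 35 arrangements and calls by Fisher's exact test, both two-sided, with Benjamini-Hochberg adjustment over all coding promoters (Python 3.11.15, SciPy 1.17.1). Fragments at a summit were recovered from fold and p, with the MACS2 pseudocount of 1, for 81.3% to 95.4% of peaks, with counting error as the only error they cover. Calls, widths, the non-overlap of ranks and widths, the permutation test, and the recovery of summit fragments were first tested on simulated data.

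The members and lists were chosen with earlier results of these data known. Named genes were those not called in all 7 lists, the 3 extremes of mean rank and width in each direction, those whose ranks or widths did not overlap between diets, the MCM2-7 subunits, and the E2F targets that the study shows. Alternatives were other windows, a stricter q, equal list lengths, other rank and width scales, another grouping of the G1/S genes, a replicate block, and leaving out each library. Ranks by fragments and outer gene ends as starts were added after seeing the data. Results on some further lineage genes are not reported here.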

Additional observations from a re-analysis of the deposited data

Results flagged for a closer look

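Among the 4 LFD-LSK lists, 2 of 29 sets of values had 1 list that stood apart from the others by Dixon's test, and chance alone flags about 1 in 20. The fold rank of Pcna was 3862 in LFD-LSK replicate 2, compared with 787, 1125, and 1310 in LFD-LSK replicates 1, 3, and 4. The fold rank of Aurka was 4158 in LFD-LSK replicate 3, compared with 735, 127, and 628 in LFD-LSK replicates 1, 2, and 4. In HFD-LSK the ranks were 858, 5888, and 9134 for Pcna and 270, 1269, and 3802 for Aurka. The Pcna value lay within the range of the other diet and the Aurka value lay above it.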

How the results depend on the processing

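For the shares called, the median ranks and widths, and the counts of members that do not overlap between the diets, 111 values under the alternatives stayed within 1 SD between libraries or within 1.5 times the count, and 16 did not. With equal list lengths the mitosis share differed by −1.39 points, in place of 20.1, and 1 member, Pole, had widths that did not overlap, in place of 2. A −log10 q of at least 5 also gave 1, Pole. Under both settings Mcm4 was not called in all 7 lists. As a percent of the list, the median rank difference for replication was −9.78 points. As percentiles within a list, the median width difference for mitosis was −10.6 points and 0 members had widths that did not overlap. The cause was not tested.

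With 1 library left out at a time, the share differed by 8.97 to 26.9 points for replication and by 11.1 to 30.6 points for mitosis. The median rank difference ran from −793 (without HFD-LSK replicate 2) to 972 for replication, with −394 without LFD-LSK replicate 3, and from −642 (without HFD-LSK replicate 3, with −59.3 without LFD-LSK replicate 2) to 2443 (without LFD-LSK replicate 3) for mitosis. The median width difference ran from 140 to 676 bp and from −64.2 (without HFD-LSK replicate 2) to 262 bp. The count of members with separate ranks ran from 0 to 2, with 1 without HFD-LSK replicate 1 or 3 or LFD-LSK replicate 1 or 2, and 2 without LFD-LSK replicate 3. The count with separate widths ran from 2 to 5, with 5 without HFD-LSK replicate 1 or LFD-LSK replicate 2. Fewer libraries then have to separate.

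The replicate numbers 1 to 3 are shared by the diets, but same-numbered libraries deviated together only weakly. The correlations of deviations in log2 rank over the 4675 promoters were 0.101, −0.0234, and 0.0260, and not each library correlated best with its own number. The labels name no pairs, so the numbers were not taken as a pairing. The paper's differential test does take sample pairing into account, so libraries may be paired in a way not known here. With the replicate block, 1 member, Pcna, moved one way in rank in the 3 pairs, beside 26.1% of the 4675 promoters, and 8 did in width, beside 32.8%. Of these 8, 6 were wider in HFD-LSK in each pair, beside 31.1% of the promoters, and 2 (Cdc45 and Plk1) were narrower, beside 1.75%. The test has no call here, since the smallest p that 3 pairs allow is 0.250. The shares differed by 8.97 and 11.1 points. Ranks by recovered fragments gave no value for the 3 mitosis members, because at least 1 summit of each had no single solution.

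The weakest called summits held 4 to 21 fragments, and the part of depth in the calls was not tested. Of the 2 shortest lists, LFD-LSK replicate 4 had the lowest mean coverage (0.0891) and LFD-LSK replicate 1 the second highest (0.214). Background coverage was lowest in these same lists, at 0.0201 in LFD-LSK replicate 4 and 0.0205 in LFD-LSK replicate 1. Over the 7 lists it rose in the same order as the number of peaks. The number of members called in every list rested on them, since 24 of the 41 members were called in each of the 5 lists other than LFD-LSK replicates 1 and 4, compared with 13 in all 7.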
